A study of Mus musculus with 4 samples.

Results

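The genes described here are 10 mouse genes of the AP-1 transcription factor group and its relatives: Fos, Fosb, Fosl1, Fosl2, Jun, Junb, Jund, Bach1, Bach2 and Smarcc1. They were chosen by their motif scores in a single-nucleus ATAC-seq study of the mammary gland, where several had the largest falls of all motif columns in fetal nuclei, and the set was completed by gene family. All 10 have a column among the 427 motif columns, and all 10 were counted among the 21887 protein-coding genes. Because the motif scores chose these genes, the scores are given as a description with no test. The reads over the genes themselves and over the regions around them were tested. They come from the same nuclei as the scores, so they are not independent of the choice.

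The study profiled open chromatin in mammary epithelium before birth and in adult animals. The animals were wild-type (WT) CD1 mice, and cells were sorted as EpCAM+ and Lin-, that is, positive for an epithelial surface protein and negative for blood and vessel lineage markers. The fetal group was taken at E18 (embryonic day 18) and the adult group at 8 weeks, with 2 libraries labelled biological replicates in each, and no group had a treatment or an altered gene. The labels give neither the sex of the animals nor how many were pooled in a library, so the p-values measure the spread between the 2 libraries of a stage, and anything that differed between the stages besides age cannot be told apart from it.

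AP-1 is a dimer of basic leucine zipper (bZIP) proteins. A FOS-family protein (Fos, Fosb, Fosl1, Fosl2) must pair with a JUN-family protein (Jun, Junb, Jund), while JUN proteins can also pair among themselves. Many of these genes are immediate-early genes, switched on within minutes by growth factors and stress. Bach1 and Bach2 are bZIP repressors that pair with small MAF proteins, and the sites they bind contain the AP-1 core sequence. Smarcc1 encodes BAF155, a core subunit of the BAF (SWI/SNF) chromatin remodelling complex and not a bZIP protein. A motif score measures how open the sites with a sequence pattern are, and does not tell which protein of a family occupies them.

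Promoter sequences of 3 genes are shown because the letters of their known control elements, or the reads over them, come up in the results. They are the 250 bases before the annotated start, on the strand of the gene, 5′ to 3′, from RefSeq (GRCm38.p6), at chr12:85473640-85473889 (plus strand) for Fos, chr4:95052223-95052472 (minus strand) for Jun and chr8:84978749-84978998 (minus strand) for Junb. Capitals mark the letters TGACGT in Fos and TGACATCA in Jun, and Junb holds none of the patterns searched.
Fos: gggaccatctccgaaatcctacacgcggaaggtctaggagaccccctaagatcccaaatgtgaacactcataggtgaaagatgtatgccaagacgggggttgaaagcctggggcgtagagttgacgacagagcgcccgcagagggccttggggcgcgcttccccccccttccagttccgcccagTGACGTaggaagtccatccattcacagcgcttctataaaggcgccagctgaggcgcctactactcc
Jun: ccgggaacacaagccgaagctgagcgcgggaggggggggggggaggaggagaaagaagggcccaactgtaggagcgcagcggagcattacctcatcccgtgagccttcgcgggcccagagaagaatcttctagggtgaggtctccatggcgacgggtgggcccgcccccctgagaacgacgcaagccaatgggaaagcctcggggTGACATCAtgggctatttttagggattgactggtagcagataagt
Junb: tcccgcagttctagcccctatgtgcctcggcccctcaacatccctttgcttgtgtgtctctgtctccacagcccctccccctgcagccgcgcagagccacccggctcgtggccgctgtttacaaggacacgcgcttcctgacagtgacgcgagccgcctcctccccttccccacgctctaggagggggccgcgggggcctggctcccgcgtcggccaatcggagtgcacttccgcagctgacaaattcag
The patterns searched on both strands were TGANTCA (the AP-1 core), TGACGTCA (the cyclic AMP response element), TGACATCA (the element known from the JUN promoter) and TGACGT, which is contained in TGACGTCA. Across 27025 RefSeq promoters of this length, TGANTCA was present in 6.87%, TGACGTCA in 1.62%, TGACATCA in 3.02% and TGACGT in 6.56%. The table matched 9 of the 10 genes by symbol, and the Bach2 entry lies at a start inside the gene. TGACATCA began 45 bases before the Jun start and TGACGT began 66 bases before the Fos start. TGANTCA was in none of the 9 windows. These are matches of letters and not measured binding sites.

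The 4 libraries hold 882 and 1695 fetal nuclei and 2465 and 2804 adult nuclei, 7846 in all, and share no cell barcode. The reads of these nuclei number 6028168 and 15801908 in the fetal and 13588107 and 19304830 in the adult libraries, with medians of 5536, 7488, 4420 and 5458 reads per nucleus. The deposited annotation divides the nuclei into 14 numbered classes of 85 to 1522 nuclei. Classes 4, 5, 9, 12 and 13 were 93.0 to 100% fetal, class 6 was 26.3% fetal and the other 8 classes were at most 2.27% fetal. By marker genes, classes 1, 4 and 8 were basal-like, classes 3, 7 and 9 luminal progenitor-like, classes 2 and 11 mature luminal-like and class 6 stromal-like, which an EpCAM sort should have left out. Class 5 had 5 of 7 luminal progenitor markers raised, and classes 10 and 14 had raised markers of 2 epithelial types and stay unnamed, as do classes 12 and 13. At the level of whole libraries the 8 mature luminal markers summed to 401 and 453 CPM (reads scaled to a common library total) in fetal and 818 and 871 in adult libraries. The 8 basal markers summed to 476, 527, 409 and 506 CPM in fetal 1, fetal 2, adult 1 and adult 2, and the 7 luminal progenitor markers to 448, 466, 445 and 382. By class, the basal markers summed to 706 CPM in fetal class 4, with 5 of 8 raised. They summed to 1404 and 1237 CPM in adult classes 1 and 8, with 8 of 8 raised, and to 693 CPM in the unnamed class 12, with 3 of 8 raised. None of these cell type markers was at 0 over the 4 libraries together. Fewer cells of a type and less open chromatin per cell cannot be told apart in sums over a library. Comparisons are therefore given over all nuclei, without the classes that had raised mature luminal markers, and within lineages. The classes were built from the same nuclei and nearly all hold 1 stage. In the lineage comparisons, too, class and stage therefore cannot be told apart.

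All 10 motif columns had lower mean scores in both fetal libraries than in both adult libraries. The deposited score (chromVAR) is the deviation of reads at sites with a motif from what is expected for the nucleus, and is centred over all nuclei, so the stages mirror each other around 0. Among the FOS-family columns, Fos averaged -2.18 and -2.40 in the fetal and 0.98 and 1.10 in the adult libraries, a difference of -3.33. Fosb averaged -1.84 and -1.99 against 0.83 and 0.94. The Fosl2 column moved least, from -0.26 and -0.33 in fetal to 0.14 and 0.14 in adult libraries. JUN-family columns differed less than Fos, with differences of -2.50 for Junb, -2.50 for Jund and -1.29 for Jun. For the 2 BACH columns the differences were -2.95 (Bach1) and -2.74 (Bach2). The Smarcc1 column had the lowest fetal means of the 10, -2.31 and -2.50, against 1.06 and 1.14 in the adult libraries. The column of its paralog Smarcc2, another BAF core subunit, differed by -0.049 between stages, and that of Ctcf, an insulator protein, by 0.28. Across all 427 columns the median stage difference was -0.005, and 217 columns were lower in fetal nuclei.

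**Figure D1:**
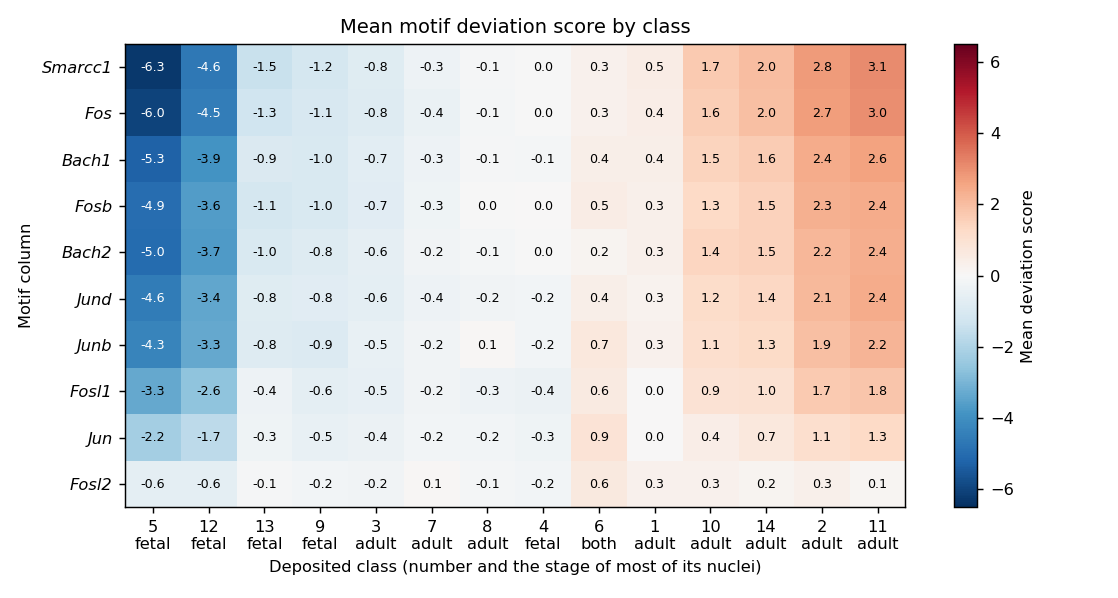
Mean motif deviation score (colour and printed number) of the 10 columns (rows) in each of the 14 deposited classes (columns, with the stage of most of their nuclei). Classes 5 and 12 are lowest in every row, and class 11 is highest in every row except Fosl2.

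The stage difference was far from even over the fetal nuclei. In class 5 the mean Fos score was -6.04 and in class 12 it was -4.51, whereas in the fetal basal-like class 4 it was -0.03 and in the fetal luminal progenitor-like class 9 it was -1.06. Classes 5 and 12 were the lowest and second lowest for all 10 columns. At the other end, class 11 averaged 3.01, class 2 averaged 2.72 and class 14 averaged 1.96 for Fos. The adult luminal progenitor-like classes 3 and 7 lay at -0.81 and -0.41, and the adult basal-like classes 1 and 8 at 0.43 and -0.13. The range of class means was 9.31 for Smarcc1 and 9.05 for Fos, 3.51 for Jun and 1.24 for Fosl2. Fosl2 was the only column with another highest class, the stromal-like class 6 at 0.62.

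For Fos, replicate libraries kept classes 5, 12 and 9 in the same order, and placed class 11 above class 2, which for Fosb and Fosl1 did not hold in adult 1 and for Fosl2 in either adult library. In the Fos column, class 5 averaged -5.45 in fetal 1 and -6.39 in fetal 2, and class 12 averaged -3.76 and -4.79, the largest gap between replicates among fetal classes. Class 9 averaged -1.09 and -0.97 in the fetal libraries. In adult libraries, class 2 averaged 2.43 and 3.05 and class 11 averaged 2.55 and 3.30. The small class 14 changed place, at 2.48 in adult 1 and 1.67 in adult 2. Class 6 was the only class with at least 20 nuclei in each of the 4 libraries, 23 and 33 fetal and 82 and 75 adult. There Fos averaged -0.14 and -1.09 in fetal and 0.19 and 1.17 in adult libraries, and Smarcc1 averaged -0.46 and -1.09 against 0.27 and 1.08. The stages did not overlap in this class for 7 of the columns, but for Fos the replicates of a stage lay further apart than the nearest fetal and adult values. They overlapped for Jun (0.68 and 0.89 fetal, 0.78 and 1.08 adult), Fosl1 (0.46 and 0.33, 0.43 and 0.96) and Fosl2 (0.56 and 0.67, 0.62 and 0.62). How many of the other motif columns separate the stages in this class was not counted, and with 2 libraries a stage such separation arises readily. The 7 columns without overlap are also not separate results. Within classes, those other than Fos correlated with Fos over nuclei at r of 0.86 (Junb) to 0.96 (Smarcc1).

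**Figure D2:**
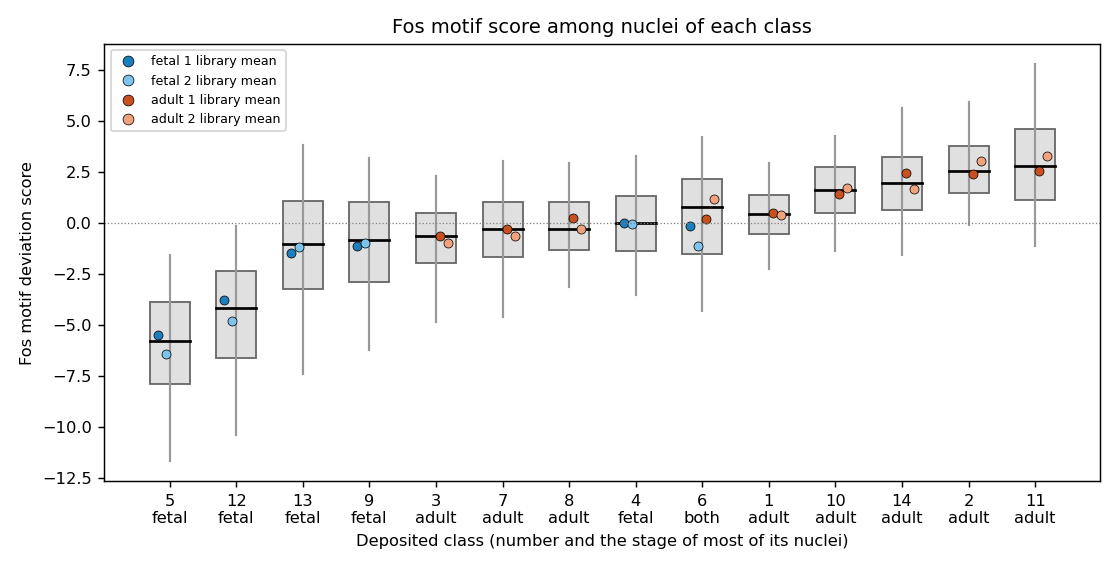
Fos motif deviation score of nuclei by deposited class (horizontal axis, with the stage of most of their nuclei), with the means of the libraries as coloured points. The library means of class 5 lie at -5.45 and -6.39, and those of class 11 at 2.55 and 3.30.

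Among single nuclei, Smarcc1 had the widest spread of all 427 columns (SD 3.51) and Fos the next (SD 3.41). The 14 classes accounted for 50.1% of the variance of Fos, 50.02% of Smarcc1, 35.4% of Jun and 7.78% of Fosl2, whereas stage accounted for 21.5% of Fos. The share of nuclei with a Fos score above 0 was 7 of 538 (1.30%) in class 5 and 15 of 339 (4.42%) in class 12, against 38.7% in class 9, 90.3% in class 11 and 94.1% in class 2. Depth widened the extremes. In class 5 the mean Fos score was -3.73 in nuclei with 2000 to 4000 reads, -5.71 with 4000 to 8000 reads and -8.60 from 8000 reads upward, and in class 12 these means were -2.36, -3.96 and -6.32. In class 11 they were 1.54, 2.44 and 4.37, and in class 2 they were 1.91, 2.68 and 3.99. Classes 5 and 12 thus lay below 0 and classes 2 and 11 above 0 in each depth range, but class 11 exceeded class 2 only from 8000 reads upward, and the size of a score was tied to depth.

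Most of the columns moved together from nucleus to nucleus within a class. After the class mean was removed, the correlation with Fos over nuclei was 0.96 for Smarcc1, 0.93 for Bach1, 0.91 for Bach2, 0.90 for Jund, 0.90 for Fosb, 0.86 for Junb and 0.77 for Fosl1. It was 0.60 for Jun and 0.14 for Fosl2, and Jun was closer to Fosl1 (0.81). None of the 10 columns was identical to another column, and columns share sites and reads of the same nuclei. The 5 other columns most like Fos over the 14 class means were Nfe2l2 (r = 0.996), Batf and Batf3 (0.995, identical columns), Cic (0.985) and Maf (0.983). Within classes, Nfe2l2 (0.78) and Batf (0.73) still moved with Fos from nucleus to nucleus, Cic (0.30) and Maf (0.18) much less. Nfe2l2 is the oxidative stress factor NRF2, Batf and Batf3 are AP-1 proteins of immune cells, and Cic is an HMG-box repressor with no bZIP domain. Of 28 other bZIP genes, 23 have a column, of which 20 were lower in fetal nuclei and 9 had r above 0.9 with Fos over class means. Some of these columns repeat each other, and of 19 distinct columns 16 were lower in fetal nuclei and 6 had r above 0.9. The median stage difference of the 23 columns was -0.32.

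At the genes themselves, the stage differences did not all point the same way. Reads were counted over each gene and 2 kb on either side, summed per library and given as CPM of all gene windows. Over all nuclei, 3 of the 10 genes (Fosb, Junb and Jun) had more reads in adult libraries and 1 (Bach2) had more in fetal libraries in edgeR's quasi-likelihood test, at a Benjamini-Hochberg adjusted p of 0.05 over 18808 genes. Of all genes tested, 22.2% passed, 10.9% higher in adult and 11.3% higher in fetal libraries. The median log2 fold change, fetal over adult, was -0.19 over the 10 genes and 0.01 over all genes.

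Fosb, a FOS-family gene induced by stimulation, showed the largest difference. Its window held 174 and 162 CPM in the fetal and 344 and 308 CPM in the adult libraries, with no overlap, and the level was 1.94-fold higher in adult (log2 fold change -0.96, SE 0.100, adjusted p = 3.91e-05). Junb, a JUN protein known for opposing the growth effects of Jun, held 161 and 137 CPM in fetal and 221 and 196 CPM in adult libraries. It was 1.40-fold higher in adult (log2 fold change -0.49, SE 0.114, adjusted p = 0.00783). Without fetal replicate 2 the Junb value was -0.38, and the Junb call was lost there and with the gene span alone. The Junb window overlaps that of Prdx2, the Jund window that of Iqcn, the Fosl1 window that of Ccdc85b and the Smarcc1 window that of Cspg5, so some reads of these 4 members may belong to either gene. Jun, the founding member of its family, held 230 and 233 CPM in fetal and 288 and 275 CPM in adult libraries, with no overlap. The Jun difference was 1.22-fold (log2 fold change -0.28, SE 0.093, adjusted p = 0.0432), and it was lost without fetal replicate 1 (adjusted p = 0.224), fetal replicate 2 (0.196) or adult replicate 1 (0.127), and in nuclei with at least the median number of reads (-0.21, adjusted p = 0.139).

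Bach2, known for its role in lymphocytes, went the other way. Its long window held 660.5 and 679 CPM in fetal and 464 and 479 CPM in adult libraries, 1.42-fold higher in fetal (log2 fold change 0.51, SE 0.077, adjusted p = 5.01e-04). Fos held 169 and 148 CPM in fetal and 195 and 194 CPM in adult libraries. The Fos libraries did not overlap between stages, but the test was not passed (log2 fold change -0.30, SE 0.106, adjusted p = 0.0576). The remaining 5 genes gave log2 fold changes between -0.21 (Bach1) and 0.04 (Fosl1), with adjusted p from 0.173 to 0.838. Smarcc1 held 66.4 and 74.0 CPM in fetal and 73.3 and 76.5 CPM in adult libraries, which overlap (log2 fold change -0.09, adjusted p = 0.655).

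**Figure D3:**
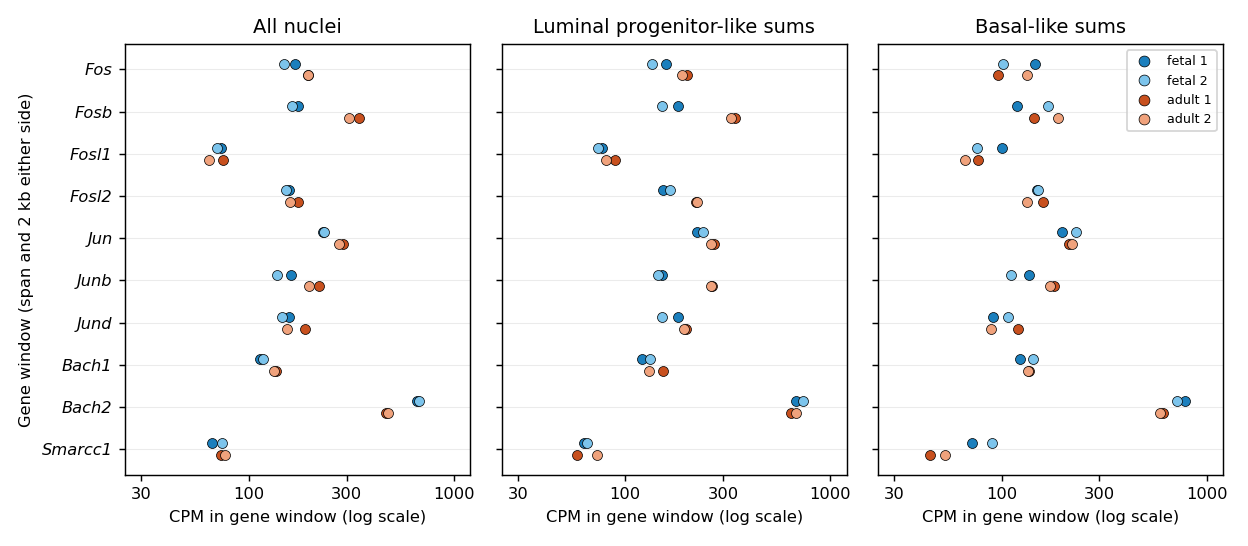
Reads over the gene and 2 kb on either side (CPM, log scale) for the 10 genes, as 1 point per library, over all nuclei, in luminal progenitor-like classes and in basal-like classes. Fosb lies at 174 and 162 in fetal and 344 and 308 in adult libraries over all nuclei, while in basal-like classes its fetal and adult points interleave.

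Set per kb of window, Jun, Junb, Fos, Jund and Fosb stood highest. Averaged over the 4 libraries the level was 35.6 CPM per kb for Jun, 30.6 for Junb, 23.9 for Fos, 23.4 for Jund and 21.6 for Fosb. It was 6.32 for Fosl2, 5.77 for Fosl1, 3.25 for Bach1, 1.62 for Bach2 and 0.647 for Smarcc1. The long Bach2 and Smarcc1 genes thus stood lowest, but Fosl1, with a window of 12241 bases, stood far below Fosb, with 11423 bases. These windows include the gene body, so the order is not an order of promoter openness.

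Leaving out classes 2, 10, 11 and 14, which had raised mature luminal markers, changed which genes passed. This comparison was chosen after the data were seen. With 15.3% of 18354 genes passing, Fosb and Junb remained higher in adult, with log2 fold changes of -0.75 (adjusted p = 2.27e-04) and -0.65 (adjusted p = 0.00137). Fosl2 joined them at 155 and 150 CPM in fetal and 208 and 187 CPM in adult libraries (log2 fold change -0.37, adjusted p = 0.0390). Bach2 did not pass, at 657 and 673 CPM in fetal and 622 and 628 CPM in adult libraries (log2 fold change 0.09, adjusted p = 0.546), nor did Jun (-0.13, adjusted p = 0.469) or Fos (-0.13, adjusted p = 0.533).

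Within 2 kb of the annotated start alone, where 22.8% of 13127 genes passed, Fosb, Jun and Junb were again higher in adult libraries. Bach2 and Fosl1 were not tested in this setting. The log2 fold changes were -0.43 for Fosb (adjusted p = 0.00117), -0.22 for Jun (adjusted p = 0.0297) and -0.48 for Junb (adjusted p = 1.61e-05). The Fosb change at the start was thus under that over the whole window, while the Junb changes lay close together.

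In luminal progenitor-like nuclei, 4 genes had more reads in adult nuclei and none had more in fetal nuclei. Fetal class 9 was set against adult classes 3 and 7, reads being summed per library, and 15.8% of 17376 genes passed, 8.05% higher in adult and 7.75% higher in fetal sums. Fosb held 180 and 151 CPM in fetal and 344 and 329 CPM in adult sums, 2.05-fold higher in adult (log2 fold change -1.03, SE 0.116, adjusted p = 2.81e-06). Junb held 151 and 144 CPM against 264 and 262 CPM (log2 fold change -0.84, SE 0.114, adjusted p = 2.87e-05). Neither gene showed any overlap of the stages. Fosl2, also called Fra-2, held 152 and 165 CPM against 222 and 224 CPM (log2 fold change -0.49, SE 0.116, adjusted p = 0.00584). Fos held 158 and 136 CPM against 199 and 188 CPM (log2 fold change -0.41, SE 0.123, adjusted p = 0.0262). Fos was lost without fetal replicate 2 (adjusted p = 0.251) or adult replicate 1 (adjusted p = 0.111), and Fosl2 without fetal replicate 1 (adjusted p = 0.0543). Fetal class 5 was not in this comparison, although 5 of 7 luminal progenitor markers were raised in it. With class 5 added to class 9, a choice made after the data were seen, 20.3% of 17634 genes passed. Fosb (-0.996, adjusted p = 1.55e-06), Junb (-0.80, adjusted p = 1.40e-05) and Fosl2 (-0.53, adjusted p = 0.00142) passed, whereas Fos did not, at 178 and 169 CPM against 200.3 and 188 CPM (-0.17, adjusted p = 0.322). With class 9 alone as the fetal class, Bach2 (0.10, adjusted p = 0.490) and Jun (-0.19, adjusted p = 0.246) did not pass.

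In basal-like nuclei none of the 10 genes passed the test. Fetal class 4 was set against adult classes 1 and 8, and 1015 of 16476 genes passed (6.16%), 3.18% higher in adult and 2.98% higher in fetal sums, with 3208 at an unadjusted p under 0.05. Junb, Bach2 and Smarcc1 were the members under that unadjusted limit, and DESeq2 also called none of the 10. With a replicate block in edgeR, Junb (adjusted p = 0.0497) and Smarcc1 (adjusted p = 0.0422) passed, as did 1441 of all 16476 genes. The replicate numbers are not said to pair the libraries. Smarcc1 held 72.1 and 89.9 CPM in fetal and 45.0 and 52.8 CPM in adult sums (log2 fold change 0.74, SE 0.256, adjusted p = 0.0765). For Junb the values were 136 and 112 CPM against 179 and 172 CPM (log2 fold change -0.52, SE 0.199, adjusted p = 0.111). Fosb held 119 and 169 CPM in fetal and 143 and 189 CPM in adult sums, which interleave (log2 fold change -0.19, SE 0.202, adjusted p = 0.675). These adult sums pool class 1, at 193 and 219 CPM, with class 8, at 77.2 and 147 CPM. A gene that missed the threshold here is not shown to be equal between stages.

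The difference between the lineages was tested directly. The stage change in basal-like minus that in luminal progenitor-like sums, with the library as a term, passed for 6.08% of 17068 genes. Among the 10 genes it passed for Fosb alone (0.84 on the log2 scale, SE 0.189, adjusted p = 6.57e-04). Without the library term the Fosb value was 0.82 with an adjusted p of 0.0517, without fetal replicate 2 it was 0.38 (adjusted p = 0.495), and without adult replicate 1 it was 0.64 (adjusted p = 0.119). The other 9 genes had adjusted p of at least 0.10, among them Smarcc1 (0.75, adjusted p = 0.104), Fosl2 (0.49, adjusted p = 0.129) and Fos (0.42, adjusted p = 0.283).

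Across the 14 classes, the levels at the genes differed within a lineage and stage as well as between them. Fosb ran from 126 CPM in the adult basal-like class 8 to 419 CPM in the mature luminal-like class 2, with 394 in class 10 and 357 in class 7. Junb was lowest in class 4 (118 CPM) and highest in class 7 (283 CPM). Jun ran from 201 CPM (class 8) to 347 CPM (class 2). Class 8 was the lowest class for Fos, Fosb, Jun, Jund and Smarcc1. The other adult basal-like class, class 1, held 150 CPM at Fos against 84.9 in class 8, 211 against 126 at Fosb and 203 against 132 at Junb. The median share of a nucleus's reads in promoter regions was 25.4% in class 1 and 18.4% in class 8, the lowest of the 14 classes, and its part in these levels was not tested. Bach2 was highest in the fetal classes 4 (728 CPM) and 9 (725 CPM) and lowest in class 2 (269 CPM). The Fos gene in class 5 stood near the top, at 244 CPM (233 in fetal 1 and 249 in fetal 2) beside 249 CPM in class 2, 144 CPM in class 9 and 123 CPM in class 12. Class 5 is the class with the lowest Fos motif score, so a low mean score over Fos sites and a high level at the Fos gene occurred in the same class, whereas class 12 combined a low score with a level near that of class 9.

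**Figure D4:**
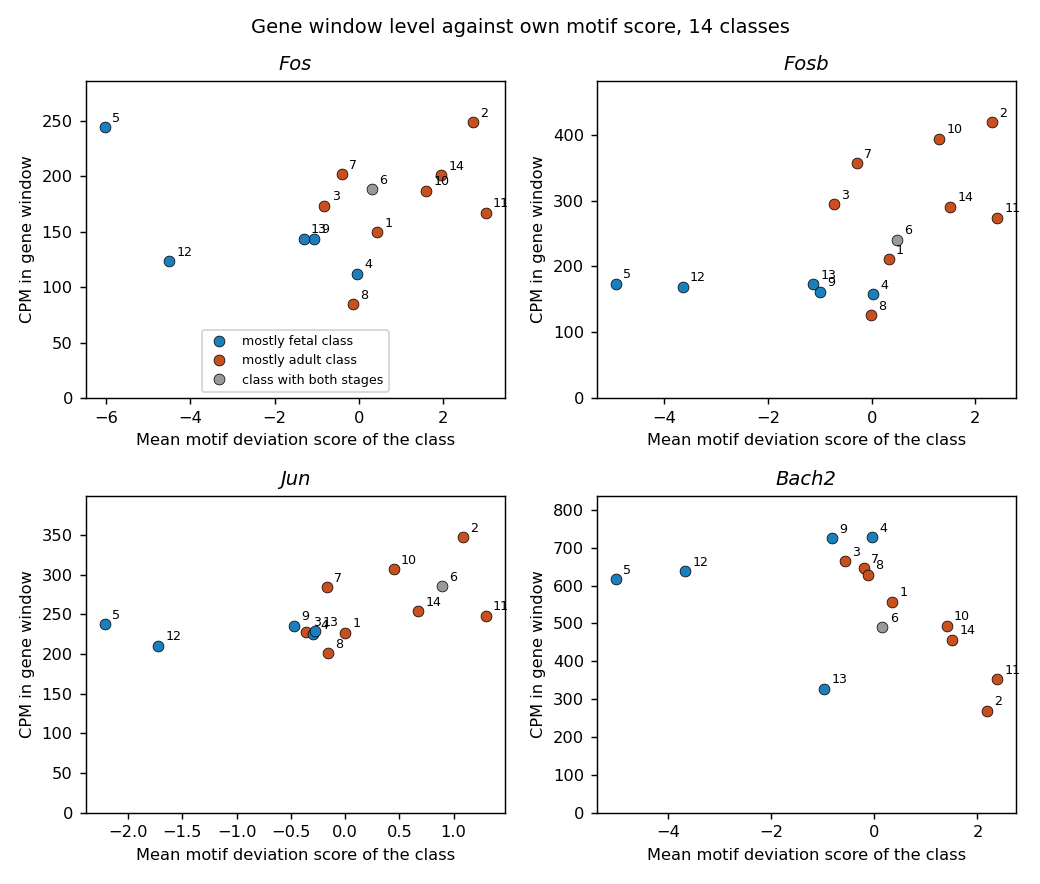
Level at the gene (CPM in the window) against the mean score of the motif column of the same name, 1 point per deposited class, coloured by stage. Fos class 5 lies at a score of -6.04 and 244 CPM, apart from the other fetal classes. Bach2 lies at 617 CPM in class 5, 728 CPM in class 4, 327 CPM in class 13 and 269 CPM in class 2, without a steady fall.

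The relation between a gene's level and its own motif score over the 14 classes differed among the genes. Pearson's r was 0.58 for Bach1, 0.56 for Fosb and 0.56 for Jun, with Spearman's rho of 0.31, 0.52 and 0.57. It was 0.29 for Junb, 0.18 for Fosl2, 0.10 for Fosl1, 0.09 for Fos, 0.09 for Smarcc1 and 0.03 for Jund. For Bach2, r and rho were both -0.51. Classes share libraries, and levels and scores come from the same reads, so these values describe the 14 points and carry no test.

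Promoter regions of these genes changed little. The authors' list holds 13 regions of 1000 bases that lie within 1000 bases of either end of a member or overlap it, all 13 were tested, and 1 passed, while 21.5% of 18570 promoter regions passed. The region that passed was at the Junb start, chr8:84978099-84979098, which covers the Junb promoter sequence printed above. It held 116 and 115 CPM of promoter reads in fetal and 173 and 152 CPM in adult libraries, with no overlap (log2 fold change -0.49, SE 0.127, adjusted p = 0.00296). The call was lost without fetal replicate 2 (-0.48, adjusted p = 0.0572) or adult replicate 1 (-0.40, adjusted p = 0.0554). The Fos promoter region held 193 and 185 CPM in fetal and 199 and 185 CPM in adult libraries, which do not differ beyond their spread (log2 fold change -0.02, adjusted p = 0.910).

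Over all nuclei, distal regions around the genes moved in both directions, and the counts differed from gene to gene. Of 259 authors' distal regions of 1000 bases in or within 50 kb of the genes, 237 passed the filter on low reads, 42 were higher in adult and 38 higher in fetal libraries. That is 33.8% of those tested, beside 35.3% of 122865 distal regions in all, so the share is close to the background. Around Jun 9 of 21 tested regions were higher in adult and 0 in fetal libraries, around Fosb 9 of 25 against 1, and around Junb 3 of 13 against 0. Around Bach2 23 of 70 were higher in fetal and 7 in adult libraries. The other 6 genes had between 12 and 24 tested regions, of which 1 to 5 were higher in adult and 2 or 3 higher in fetal libraries. Of all distal regions 18.8% were higher in adult and 16.6% higher in fetal libraries. With classes 2, 10, 11 and 14 left out, where 22% of 93718 regions passed, the counts were 6 adult and 0 fetal of 13 for Jun, 4 and 0 of 20 for Fosb, and 8 adult and 10 fetal of 63 for Bach2. Fosl2 then had 7 adult and 1 fetal of 19, Fos 6 and 1 of 23, and Bach1 4 and 1 of 19. Junb, Jund and Fosl1 had 2 adult and 0 fetal each, and Smarcc1 none of 9. Over all 10 genes 41 regions were then higher in adult and 13 higher in fetal libraries, of 203 tested, beside 12.2% and 9.79% of all distal regions in that setting, and 10 of the 13 lay at Bach2.

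**Figure D5:**
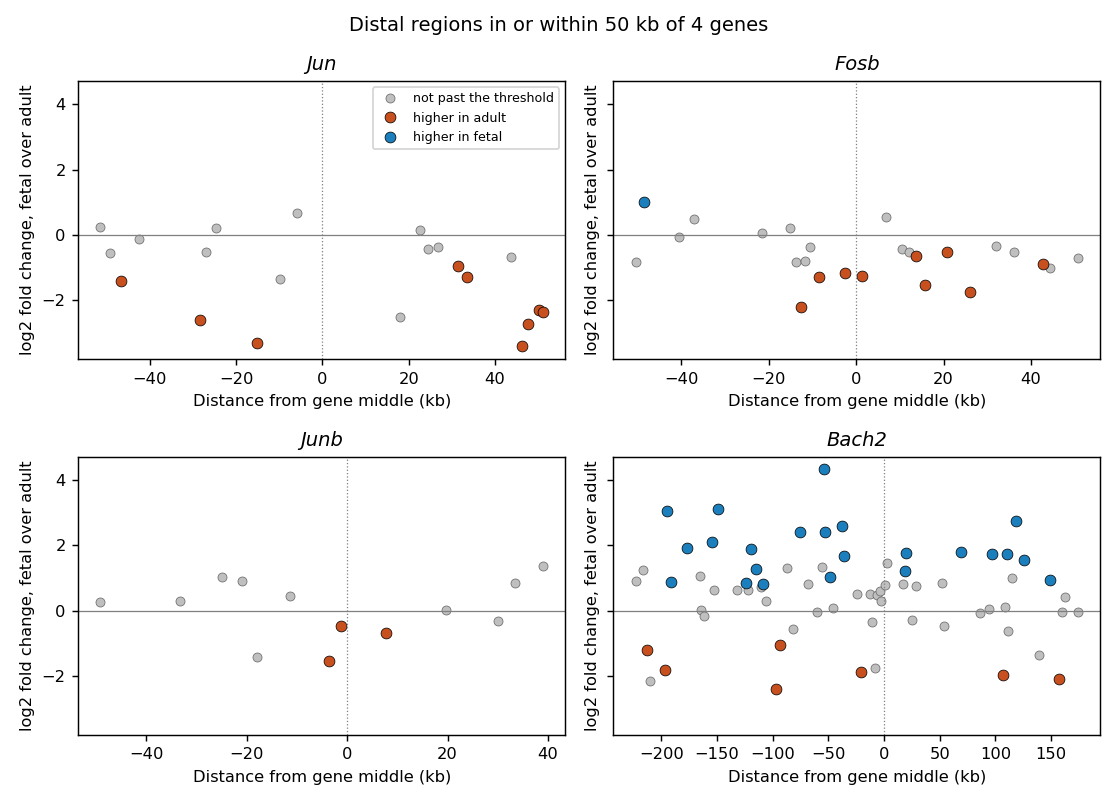
Log2 fold change, fetal over adult, of distal regions in or within 50 kb of 4 of the genes against distance from the middle of the gene (kb), 1 point per region. Around Jun the 9 regions past the threshold all lie below 0, and around Bach2 23 lie above and 7 below.

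Among regions that averaged 50 reads or more, those named at Jun and Fosb had more reads in adult libraries. The Jun region chr4:95097872-95098871, 46.1 kb upstream, held 12 and 20 reads in fetal and 148 and 184 reads in adult libraries. That is 5.13 and 3.23 CPM of distal reads against 26.99 and 24.1 (log2 fold change -2.71, SE 0.343, adjusted p = 5.29e-08). By class it was highest in class 10 (52.3 CPM) and class 2 (45.5 CPM) and lowest in class 12 (0.94 CPM, 1 read), and without classes 2, 10, 11 and 14 its value was -1.54 (adjusted p = 0.0318). Its neighbour chr4:95100293-95101292 held 8 and 19 reads against 82 and 128 (log2 fold change -2.31, adjusted p = 1.28e-05) and was highest in the stromal-like class 6. Another Jun region, chr4:95081596-95082595, 29.9 kb upstream, was highest in class 7 (52.4 CPM), with a log2 fold change of -0.94 (adjusted p = 0.00682) that was lost without fetal replicate 1 (-0.53, adjusted p = 0.156). Upstream of Fosb, the region chr7:19321585-19322584 held 20.5 and 11.3 CPM in fetal and 50.3 and 36.7 CPM in adult libraries. The log2 fold change was -1.54 (SE 0.259, adjusted p = 9.96e-06), and the class levels ran from 4.03 CPM in class 5 to 44.8 in class 7 and 64.5 in class 2. The region chr7:19331922-19332921, 22.3 kb away, behaved alike over the libraries (log2 fold change -1.73, adjusted p = 7.71e-06; -1.11, adjusted p = 0.0273, without those 4 classes). A further Fosb region, chr7:19297508-19298507, 4.7 kb downstream, gave -1.30 (adjusted p = 0.00971) and did not pass without fetal replicate 2 (-0.58, adjusted p = 0.322), adult replicate 1 (-0.84, adjusted p = 0.227) or those 4 classes (-0.08, adjusted p = 0.939).

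The Junb and Jund genes also had regions with more reads in adult libraries. The Junb region chr8:84985131-84986130, 6.9 kb upstream, had the highest mean CPM in each stage among the distal regions named. It held 64.2 and 44.9 CPM in fetal and 91.2 and 79.1 CPM in adult libraries. Its log2 fold change was -0.67 (SE 0.190, adjusted p = 0.00528), and without fetal replicate 2 it was -0.36 (adjusted p = 0.308). Another Junb region, chr8:84973801-84974800, 2.6 kb downstream, held 5.56 and 9.20 CPM in fetal and 20.2 and 24.9 CPM in adult libraries. Its log2 fold change was -1.53 (adjusted p = 1.48e-04), and the call held in 10 of 11 alternative settings. The Jund region chr8:70666711-70667710, 30.5 kb upstream, showed the largest change of all regions named. It held 4 and 22 reads in fetal and 152 and 185 reads in adult libraries (log2 fold change -3.12, SE 0.359, adjusted p = 7.66e-09) and was highest in the luminal progenitor-like class 7 (44.0 CPM).

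Inside Bach2, regions of opposite direction lay in the same gene. The region chr4:32257532-32258531 held 26.1 and 30.5 CPM in fetal and 5.65 and 7.46 CPM in adult libraries (log2 fold change 2.10, SE 0.290, adjusted p = 3.13e-07). It was highest in fetal classes 4 (49.4 CPM) and 12 (43.0 CPM) and lowest in class 2 (1.26 CPM). The region chr4:32518794-32519793 held 5.99 and 6.78 CPM against 26.99 and 24.2 CPM (log2 fold change -1.97, adjusted p = 2.41e-06) and was highest in the mature luminal-like classes 11 (40.0 CPM) and 2 (36.9 CPM). Without classes 2, 10, 11 and 14 the former was 1.42 (adjusted p = 0.00150) and the latter -1.28 (adjusted p = 0.0216). Another region inside Bach2, chr4:32314789-32315788, held 1.71 and 3.07 CPM in fetal and 12.9 and 14.9 CPM in adult libraries. It had the largest change of the Bach2 regions named (log2 fold change -2.41, adjusted p = 2.15e-05). Bach1 and Smarcc1 showed the same mixture. The Bach1 region chr16:87674946-87675945, 23.5 kb upstream, was higher in fetal libraries (log2 fold change 2.16, adjusted p = 1.12e-06) and had no read in class 2, and chr16:87712757-87713756 inside the gene was higher in adult libraries (-1.75, adjusted p = 1.86e-05). The latter was highest in classes 11 (41.8 CPM) and 2 (35.1 CPM), and without those 4 classes its value was -0.88 (adjusted p = 0.156), while that of the former was 1.28 (adjusted p = 0.00663). Another Bach1 region, chr16:87688864-87689863, 9.6 kb upstream, was also higher in adult libraries (-1.64, adjusted p = 4.47e-04). In Smarcc1, chr9:110205615-110206614 was higher in fetal libraries (1.66, adjusted p = 1.39e-05) and chr9:110228262-110229261 higher in adult libraries (-2.41, adjusted p = 3.09e-07). The latter was highest in class 2 (52.3 CPM), and without those 4 classes its value was -0.34 (adjusted p = 0.720), while that of the former was 0.81 (adjusted p = 0.0509).

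A region downstream of Fos was highest in the class with the lowest Fos motif score. The region chr12:85524219-85525218, 47.4 kb past the gene, held 48.8 and 50.2 CPM in fetal and 28.5 and 14.01 CPM in adult libraries (log2 fold change 1.24, SE 0.242, adjusted p = 8.29e-05). By class it was highest in class 5 (86.7 CPM) and class 12 (61.7 CPM), and it had no read in class 14 or in class 11, the class with the highest Fos score. Without classes 2, 10, 11 and 14 the log2 fold change was 0.28 (adjusted p = 0.448), so the call rests on those adult classes. The other Fos region named, chr12:85429997-85430996, was higher in adult libraries (-1.07, adjusted p = 0.00445). Near Fosl1, a region at chr19:5431671-5432670 held 6.85 and 4.199 CPM in fetal and 21.9 and 14.01 CPM in adult libraries (-1.79, adjusted p = 1.74e-04) and was highest in class 7 (31.7 CPM). Near Fosl2, chr5:32187394-32188393 was higher in fetal libraries (0.76, adjusted p = 0.0160), and this call was lost without fetal replicate 2 (adjusted p = 0.0831), adult replicate 2 (adjusted p = 0.310) or classes 2, 10, 11 and 14 (0.57, adjusted p = 0.148).

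The authors' deposited table of co-accessibility gives a score to pairs of regions that open in the same nuclei, over both stages together. Of its 12719512 pairs, 2.63% had a score of at least 0.1. That share covers pairs of every kind of region, while the counts that follow are of promoter pairs, whose general share was not counted. In the authors' deposited table, Jund promoter pairs reached that level in 36 of 166 cases, those of Fosb in 28 of 164, those of Junb in 14 of 121 and those of Jun in 10 of 74. The corresponding counts for Fos, Fosl2 and Smarcc1 were 11 of 139, 13 of 180 and 4 of 83, and for Fosl1 39 of 393. The Fosl1 count covers 3 promoter regions that lie at both ends of the gene, so it may include pairs of the promoter of a neighbour such as Ccdc85b. No pair of the Bach1 (77) or Bach2 (88) promoter reached 0.1 in the authors' deposited table. The distal partners of Jun were higher in adult libraries in 8 of 10 cases, those of Fosb in 10 of 15 and those of Junb in 5 of 6. None of these was higher in fetal libraries. The counts were 4 adult and 0 fetal of 10 for Fosl1, 5 and 1 of 14 for Jund, 2 and 2 of 12 for Fosl2 and 1 and 0 of 7 for Fos. Of all distal regions 18.8% were higher in adult and 16.6% higher in fetal libraries. Those shares rise with depth: of 28608 distal regions that averaged 50 reads or more, 8082 were higher in adult and 7219 higher in fetal libraries. Among promoter partners, 2 of 13 for Fosb were higher in adult and 0 in fetal libraries, and 1 and 0 of 8 for Junb. The counts were 1 and 0 of 19 for Fosl1, 4 and 1 of 22 for Jund and 1 and 0 of 4 for Fos. For Smarcc1 they were 1 and 0 of 3 and for Fosl2 0 and 1 of 1. Of all promoter regions 11% were higher in adult and 10.5% higher in fetal libraries. Shares among partners of other promoters were not counted. Because the pair scores were made from the same nuclei, a partner that is open in the same classes as a promoter is more easily listed.

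Other genes followed the same class pattern as some of the members. Among 13963 genes over the 14 classes, the levels most like Fosb belonged to Qsox1 (r = 0.935), Pfkfb3 (0.927) and Rab20 (0.922). Jun was closest to Rpl27a (0.944), Urgcp (0.911) and Lasp1 (0.907), and Junb to Sh3bp2 (0.8998), Cebpd (0.893) and Mpc1 (0.890). Fos was closest to Vapa (0.913), Dynlt1b (0.907) and Trabd (0.895), and Bach2 to Thbs1 (0.954), Arnt2 (0.932) and Chst3 (0.926). Cebpd is itself a bZIP gene of acute responses, and Thbs1 encodes the matrix protein thrombospondin. With so many genes and 14 points, high values of r arise readily.

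Other bZIP genes passed at a share near that of all genes. Of 28 other bZIP genes tested, 3 were higher in fetal and 4 higher in adult libraries (25% in all, beside 22.2% of all genes), with a median log2 fold change near 0. Those higher in fetal libraries were Nfe2, a blood-lineage bZIP factor (1.09, adjusted p = 1.28e-04), Batf3 (0.54, adjusted p = 0.0344) and Nfe2l3 (0.47). Of the 4 higher in adult libraries, Mafg, a small MAF that pairs with BACH proteins, had the largest excess (-0.57, adjusted p = 0.00943). It was followed by Atf6b (-0.54), Atf2 (-0.41) and Creb1 (-0.40). In luminal progenitor-like nuclei 2 of 27 were higher in fetal and 3 higher in adult sums, beside 15.8% of all genes, among them Mafg (-0.86). Of 23 other BAF genes, 1 was higher in fetal and 2 higher in adult libraries (13.0% in all, beside 22.2% of all genes). Dpf3, a subunit that reads histone marks, was higher in fetal libraries (0.63, adjusted p = 0.00104), and Arid2 (-0.45) and Arid1b (-0.33) were higher in adult libraries. Dpf3 was also higher in fetal sums within both lineages, by 0.40 in luminal progenitor-like and 0.69 in basal-like nuclei. In each lineage 1 of the 23 passed (4.35%), beside 15.8% and 6.16% of all genes.

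Immediate-early and growth factor response genes, many of which are switched on by the same stimuli as Fos and also by tissue dissociation, did not move as a block. Of 23 tested over all nuclei, 4 were higher in fetal and 3 higher in adult libraries, beside 11.3% and 10.9% of all genes, and the median log2 fold change was 0.12. Nr4a1, an orphan nuclear receptor, was higher in fetal libraries (0.89, adjusted p = 3.83e-04), as were Elk1, Dusp6 and Egr1, whereas Klf4 (-0.49, adjusted p = 0.00753), Zfp36 (-0.38, adjusted p = 0.0245) and Elk4 (-0.35) were higher in adult libraries. In luminal progenitor-like nuclei Nr4a1 was higher in fetal sums (0.72), and Zfp36 (-0.64), Ier5 (-0.62), Klf6 (-0.44) and Myc (-0.41) were higher in adult sums, 5 of 23 in all beside 15.8% of all genes. In basal-like nuclei Dusp4 (1.01) and Dusp6 (0.58) were higher in fetal sums and none was higher in adult sums, 2 of 23 beside 6.16% of all genes. The part of dissociation in these values was not tested.

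Known target genes of AP-1 and BACH1 passed at a share near that of all genes. Of 20 tested over all nuclei, 4 were higher in adult and 1 higher in fetal libraries (25% in all, beside 22.2% of all genes), with a median log2 fold change of -0.23. Plaur, the urokinase receptor, held 51.1 and 59.8 CPM in fetal and 113 and 117 CPM in adult libraries (-1.03, adjusted p = 9.19e-05). Gclc, a glutathione synthesis enzyme (-0.91, adjusted p = 3.35e-04), Fth1, the ferritin heavy chain (-0.65, adjusted p = 0.00457), and Srxn1 (-0.43) were also higher in adult libraries. Vim, which encodes the filament protein vimentin, was higher in fetal libraries (0.76, adjusted p = 5.76e-04). In luminal progenitor-like nuclei 4 of 18 were higher in adult sums, namely Spp1 (-2.06), Fth1 (-1.15), Plaur (-0.92) and Cd44 (-0.84), and none was higher in fetal sums, beside 8.05% and 7.75% of all genes. In basal-like nuclei 0 of 17 passed in edgeR, beside 6.16% of all genes. An unadjusted p under 0.05 was reached by 5 (Fth1, Ccnd1, Plaur, Hmox1 and Mmp9), beside 3208 of all 16476 genes.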

How the data were processed

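Reads of each nucleus came as deposited position files, 1 per library. Per the submitters' processing notes, Bowtie2, MACS2 and bedtools were used with mm10; their versions and settings are not given in the sources used here. The authors deposited lists of promoter and distal regions, a table of motif deviation scores (chromVAR) with the class of each nucleus, and a co-accessibility score for pairs of regions. Nuclei were matched to barcodes by order; the depth the authors deposited equalled the counted reads in all 7846. The 7846 numbered columns of the gene accessibility table name no sample and were not used. Per the labels' protocols, 20 nuclei were sorted per well, so a barcode pair may hold more than 1 nucleus; no doublet caller was run. The labels call the cells thawed in 1 place and fresh in another. Every listed nucleus has at least 2000 reads.

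Read counts were computed here from the deposited positions, over 21887 gene windows (RefSeq span and 2 kb either side), promoter and distal regions (overlap of at least 1 base), and summed per library or per library and class, because nuclei from 1 library do not count as replicates. Tests used edgeR 4.0.16 in R 4.3.3 (quasi-likelihood, TMM, Benjamini-Hochberg 0.05, mean of at least 10 reads per library); the SE is the log2 fold change divided by the root of F. Python 3.11.15 was used otherwise. The test was checked on simulated counts. Promoter regions listed more than once were used once, 19204 of 21179 lines.

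Alternatives were DESeq2 1.42.0, other scaling and filters, other windows, deeper nuclei, a replicate block, each library left out and, chosen after seeing the data, 4 classes left out or class 5 added to class 9. The 10 genes and the gene lists were chosen with earlier results of these data known. Named regions are, per gene, at most 3 with the largest change among those past the threshold, whose stages do not overlap and that average 50 reads or more; named list genes are the 3 with the largest change in each direction, and a 4th where only 4 passed was named after its value was seen.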

Additional observations from a re-analysis of the deposited data

Results flagged for a closer look

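The stage change at Fosb differed between lineages. The test of the difference itself gave 0.84 on the log2 scale (basal-like minus luminal progenitor-like, SE 0.189, edgeR adjusted p = 6.57e-04). The adult excess was 2.05-fold in luminal progenitor-like sums (344 and 329 CPM against 180 and 151). Basal-like sums interleaved (143 and 189 CPM against 119 and 169). The adult basal-like sums pool class 1 (193 and 219 CPM) and class 8 (77.2 and 147 CPM), which were not tested apart. The call was lost without the library term and without fetal replicate 2 or adult replicate 1.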

How the results depend on the processing

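Of 408 values at single genes under an alternative setting, 361 kept direction and side of the threshold, 18 lost the call, 7 gained one and 22 changed sign, none of those with a call. Of 241 at named regions 223 kept both and 18 lost the call. Of 70 motif stage differences 0 changed sign, and 24 moved past a limit well under the SD among nuclei. The Fos difference ran from -3.44 to -2.90, and the cause of the moves was not tested. Fosb was called in 14 of 14 settings (-1.07 to -0.43), Junb in 12 of 14, Bach2 in 12 of 13 and Jun in 7 of 14. The count of called genes was 6421 with a replicate block, and 1812 to 4463 without 1 library. Called members numbered 2 with the gene span alone and 2 to 6 without 1 library. Promoter regions numbered 2622 with DESeq2 and 2514 to 3057 without 1 library. Distal regions numbered 24872 with DESeq2, 15301 with a filter at 50 reads and 20641 with 4 classes left out, both of which tested fewer regions. Luminal progenitor-like calls numbered 1468 with DESeq2 and 1408 to 2477 without 1 library, and basal-like calls 322 and 547 to 866. Interaction calls numbered 535 with no library term (0 members) and 407 to 705 without 1 library (0 to 1 members). The median of the 10 motif stage differences, -2.62, was -2.34 with medians over nuclei, -2.33 in nuclei of 4000 to 8000 reads and -2.48 with equal weight per class.

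Signs changed for Fosl1 (gene span alone -0.070, classes left out -0.16, without 1 library -0.086 to 0.16) and Smarcc1 (0.22 with classes left out; luminal progenitor-like -0.19 to 0.14 without 1 library). In basal-like sums, the ranges without 1 library were -0.19 to 0.33 (Fos), -0.50 to 0.052 (Fosb), -0.10 to 0.17 (Fosl2), -0.14 to 0.084 (Jun), -0.25 to 0.18 (Jund) and -0.14 to 0.068 (Bach1). Total reads gave 0.015 (Jun) and 0.012 (Bach1), and a filter at 50 reads 0.033 (Jun), 0.012 (Jund) and 0.030 (Bach1). The Jund interaction ran from -0.082 to 0.41.

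The replicate numbers are not said to pair the libraries, and deviations of same-numbered libraries correlated at r = 0.292 over genes, 0.131 in luminal progenitor-like and 0.085 in basal-like sums, and 0.068 and 0.072 over distal and promoter regions. With the replicate block, 1441 of 16476 genes passed in basal-like sums. Of the members 2 passed, Junb (-0.52, adjusted p = 0.0497) and Smarcc1 (0.73, adjusted p = 0.0422). With 2 libraries a stage, small differences cannot be resolved, least of all in basal-like sums.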
